A study of Mus musculus with 15 samples.

Results

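The cyclin-dependent kinase inhibitors of the mouse genome are 7 genes, Cdkn1a, Cdkn1b, Cdkn1c, Cdkn2a, Cdkn2b, Cdkn2c and Cdkn2d, which were taken by their gene names. All 7 are among the 36528 genes listed, and all 7 were among the 17282 genes tested after a filter on low counts. Their transcripts were measured by sequencing polyadenylated RNA from nests of basal cell carcinoma cut out of frozen mouse skin by laser capture. The 15 libraries form 3 groups of 5: nests remaining after 28 days of vismodegib, a drug that blocks the Hedgehog transducer Smoothened, and untreated nests that were either positive or negative for Ki67, an antigen of proliferating cells. Every group shares one genotype, K14Cre-ER with Ptch1fl/fl and p53fl/fl alleles and Lgr5GFP. The keratin 14 promoter limits the tamoxifen-activated Cre to keratin 14-expressing epithelium, so the controls carry the same floxed Ptch1, which encodes the receptor that restrains Smoothened, and the same floxed p53 gene as the treated nests. The labels give no age, tie no library to an animal and carry no replicate numbers. Nests may therefore share animals, the p-values then measure only the spread between libraries, which may be technical, and they would be too small.

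Progression from G1 to S phase depends on cyclin D with Cdk4 or Cdk6 and on cyclin E with Cdk2, which phosphorylate the retinoblastoma protein and release E2F transcription factors. Inhibitors of the INK4 family bind Cdk4 and Cdk6 alone and keep cyclin D away, and inhibitors of the CIP/KIP family bind assembled cyclin and kinase complexes, above all those of Cdk2. In keratinocytes p21 from Cdkn1a, p27 from Cdkn1b and p57 from Cdkn1c are known for their part in leaving the cell cycle, p15 from Cdkn2b for its induction by TGF-beta, and the products of Cdkn2a for tumour suppression and senescence.

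The inhibitors moved in different directions. In the vismodegib nests Cdkn2b, which encodes p15Ink4b, was 6.54-fold lower than in the Ki67-positive nests and 7.33-fold lower than in the Ki67-negative nests, and Cdkn2a had 3 counts in all over the 5 libraries, against 73 and 65. Against the Ki67-positive nests 3 of 7 fell (Cdkn2b, Cdkn2a and Cdkn1c) and 1 of 7 rose (Cdkn1a), where 13.4% of all genes tested fell and 12.6% rose. Against the Ki67-negative nests 2 of 7 fell (Cdkn2b and Cdkn2a) and 2 of 7 rose (Cdkn2c and Cdkn2d), where 16.5% of all genes fell and 15.4% rose. A count of 10 was reached in 0 of 5 treated libraries for Cdkn2a and in 1 of 5 for Cdkn1c. The numbers that fell thus include genes that passed the filter mainly through untreated libraries, and could hardly be called any way but lower. Between the untreated groups no inhibitor was called by edgeR. The median log2 fold change over the 7 was -0.13, -0.12 and -0.01 in these comparisons, against -0.02, -0.03 and 0.01 over all genes tested. Calls are adjusted p-values under 0.05 from edgeR's quasi-likelihood test over all genes, and the comparisons share libraries, so their results are not independent of each other.

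**Figure D1:**
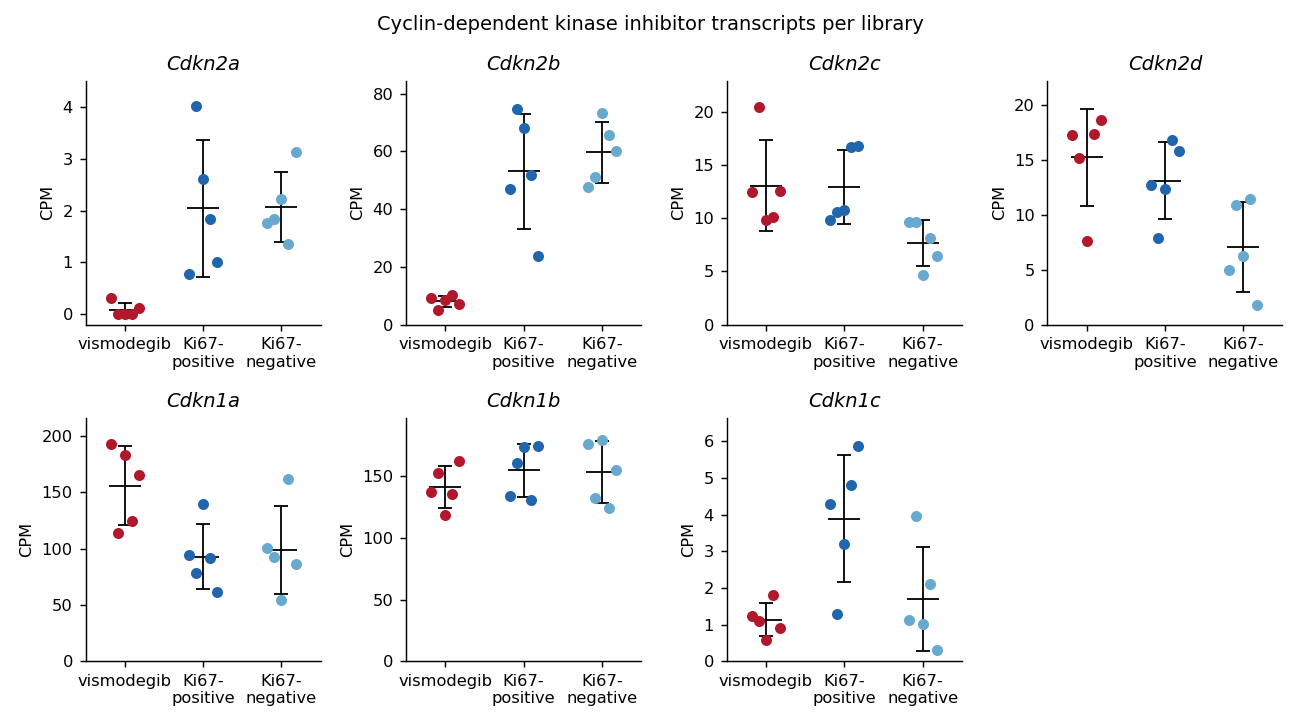
Counts scaled to library size (CPM, vertical axes starting at or just below 0) of each inhibitor in the 15 libraries, by group. Points are libraries, long dashes are means and error bars are the SD over 5 libraries. Every vismodegib library lies below every untreated library for Cdkn2a and Cdkn2b, whereas the points of Cdkn1b overlap in all 3 groups.

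Because Cdkn2a and Cdkn2b had the largest falls and lie side by side, the 250 bases ahead of their annotated starts are shown, with those of Cdkn1a, which moved the other way. In RefSeq's annotation of the build GRCm38.p6, Cdkn2a spans chr4:89274473-89294619 and Cdkn2b spans chr4:89306289-89311032, both on the minus strand and 11669 bases apart. Each window is written 5′ to 3′ on the gene's strand, and capitals mark matches to the motifs named after them. The p53 motif, in the first Cdkn1a window, is the long run of capitals, and the other runs are a GC box or an E2F motif.
Cdkn2b, chr4:89311033-89311282, minus strand: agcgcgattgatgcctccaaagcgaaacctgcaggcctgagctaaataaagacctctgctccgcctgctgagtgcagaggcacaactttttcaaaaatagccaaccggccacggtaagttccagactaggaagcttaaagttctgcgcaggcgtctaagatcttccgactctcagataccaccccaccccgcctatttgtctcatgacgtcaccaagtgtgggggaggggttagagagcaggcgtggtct
Cdkn2a, first start, chr4:89294620-89294869, minus strand: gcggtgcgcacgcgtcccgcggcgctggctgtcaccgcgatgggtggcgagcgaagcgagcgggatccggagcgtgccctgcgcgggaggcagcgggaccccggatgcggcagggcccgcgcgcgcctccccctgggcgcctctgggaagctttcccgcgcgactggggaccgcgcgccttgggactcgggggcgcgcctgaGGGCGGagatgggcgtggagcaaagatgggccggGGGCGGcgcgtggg
Cdkn2a, internal start, chr4:89282193-89282442, minus strand: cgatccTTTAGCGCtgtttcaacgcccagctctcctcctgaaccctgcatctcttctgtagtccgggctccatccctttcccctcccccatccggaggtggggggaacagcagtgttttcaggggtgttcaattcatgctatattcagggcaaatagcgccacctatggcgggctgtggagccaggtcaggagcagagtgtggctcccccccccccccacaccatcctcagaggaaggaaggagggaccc
Cdkn1a, first start, chr17:29090729-29090978, plus strand: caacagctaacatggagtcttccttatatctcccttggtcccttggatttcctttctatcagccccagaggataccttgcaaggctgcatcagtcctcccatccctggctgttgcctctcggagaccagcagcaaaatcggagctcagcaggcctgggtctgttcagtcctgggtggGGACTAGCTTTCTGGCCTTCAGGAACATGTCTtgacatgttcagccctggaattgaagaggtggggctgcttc
Both strands were searched for 8 motifs. GACCACCCA is bound by GLI factors, the effectors of Hedgehog signalling. TGANTCA stands for the AP-1 site of Fos and Jun proteins. CCGGAAG is the core of sites for ETS factors, which are known activators of the INK4 locus. CACGTG is the E-box of Myc and related factors. GGGCGG, the GC box, is bound by Sp proteins of many housekeeping promoters. TATAAA is the TATA box, and TTTNGCGC is the site of E2F factors. The p53 response element was searched as 2 copies of RRRCWWGYYY with a short gap allowed between them (R is A or G, W is A or T, Y is C or T). Stretches that miss this pattern by a letter are not marked, so the capitals need not give the bounds of a bound element. No matches overlap in these windows. The Cdkn2b window held 0 matches to any of them, with 53.6% G or C and 12 CpG dinucleotides. The first Cdkn2a window, ahead of the transcript that encodes p19Arf, was 78.4% G or C with 40 CpG and held 2 GC boxes, and the internal window, ahead of the p16Ink4a transcript, was 60.0% G or C with 7 CpG and held 1 E2F motif. Over 32851 windows of the same length, the median was 52.4% G or C and 6 CpG, 32.7% held a GC box and 1.13% the E2F motif. The first Cdkn1a window held 1 match to the p53 motif, from 73 to 42 bases before the start, which 0.0639% of all windows held. The other Cdkn1a window, chr17:29093519-29093768 on the plus strand, is not printed, and it was 64.8% G or C with 19 CpG and held 2 GC boxes and 0 p53 matches. No GLI match was found in the 9 windows of the 6 inhibitors that matched the table (0.225% of all windows held one). A match describes letters only. The gene Cdkn1c had no entry.

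Cdkn2b, the INK4 inhibitor that TGF-beta is known to induce, stood at 9.40, 5.06, 8.41, 10.2 and 7.33 CPM in vismodegib libraries 1 to 5. The Ki67-positive libraries held 46.8, 74.6, 68.2, 51.6 and 23.9 CPM, and the Ki67-negative libraries 47.8, 51.3, 73.3, 65.5 and 60.1 CPM. Every treated library was below every untreated library, and the lowest untreated value, in Ki67-positive library 5, was still above the highest treated value of 10.2 CPM. The group means were 8.08 ± 2.005, 53.03 ± 19.9 and 59.6 ± 10.4 CPM (SD, n = 5 each). The log2 fold change was -2.71 (SE 0.27) against the Ki67-positive nests and -2.88 (SE 0.27) against the Ki67-negative nests. Its adjusted p-values by edgeR were 1.12e-06 and 5.75e-07. Of the 17282 genes tested, 115 had a smaller p-value in the first comparison and 98 in the second. Groups that do not overlap were found for 20.3% of all genes in the first comparison and 20.5% in the second, and for 2 and 3 of the 7 inhibitors. In such bulk samples fewer cells of a type and less RNA per cell cannot be told apart. The Hedgehog target Ptch1 was spread widely over the vismodegib libraries, at 148, 876, 664, 923 and 142 CPM in libraries 1 to 5. Both genes were highest in library 4, while Cdkn2b was lowest in library 2 and second highest in library 1. Whether Cdkn2b follows Ptch1 was not tested. Counts over the whole Ptch1 gene, which is floxed in every group, do not separate intact from recombined transcripts.

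Cdkn2a encodes p16Ink4a and, from another first exon and reading frame, p19Arf, the stabiliser of p53; counts per gene cannot separate them. The vismodegib libraries held 2, 0, 0, 0 and 1 counts of it. The Ki67-positive libraries held 5, 25, 22, 16 and 5 counts, and the Ki67-negative libraries 11, 13, 11, 9 and 21. All treated libraries were below all untreated ones, with 3 of 5 at 0, which allows up to 0.474, 0.297 and 0.365 CPM in libraries 2, 3 and 4 at 3 counts. In CPM the untreated ranges were 0.77 to 4.02 and 1.36 to 3.14, and the highest treated library stood at 0.31. Summed over libraries and scaled for their size, 3 counts against 73 made Cdkn2a 27.1-fold lower than in the Ki67-positive nests, with an exact 95% interval from 8.91 to 134. Against the Ki67-negative nests, 3 counts against 65 made it 26.7-fold lower (8.73 to 133). Both intervals cover counting error only. The fall was called by edgeR with adjusted p = 0.000405 and 0.00037. The fitted log2 fold change of -4.41 or -4.42 (SE 0.79 in both) depends on how near-zero counts are handled, and without vismodegib library 1 it was -5.40 and -5.41 (adjusted p = 0.000337 and 0.000296). Cdkn2a passed the count filter only through untreated libraries, since 10 counts were reached in 0 of 5 treated, 3 of 5 Ki67-positive and 4 of 5 Ki67-negative libraries.

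The neighbours of this locus were examined because Mtap, a methionine salvage enzyme, lies on the same stretch of chromosome 4, 93382 bases from Cdkn2a. Mtap ranged from 17.6 to 24.04 CPM after treatment, 34.6 to 54.1 CPM in the Ki67-positive group and 25.1 to 44.6 CPM in the Ki67-negative group. The treated libraries were below all others. The log2 fold change of Mtap was -1.14 (SE 0.19) and -0.77 (SE 0.19), with adjusted p = 0.000219 and 0.0049 by edgeR. Of the other listed neighbours that were measured, Klhl9 was not called in either comparison (log2 fold change -0.08 and 0.23) and Tusc1 rose against the Ki67-negative nests (1.38, adjusted p = 0.00779) and stood at 0.96 against the Ki67-positive nests (adjusted p = 0.0565, edgeR). Across the 15 libraries the log2 CPM of Cdkn2a and Cdkn2b had a Pearson correlation of 0.94, and 0.58 after the group means were subtracted. These points share libraries and depth, and Cdkn2a rests on few counts.

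Cdkn2c encodes p18Ink4c, an INK4 inhibitor known to be induced by E2F in cycling cells. Its CPM values were 12.5, 20.4, 9.80, 10.1 and 12.6 in the vismodegib libraries, 9.83, 10.6, 10.8, 16.7 and 16.8 in the Ki67-positive libraries and 9.68, 9.63, 4.64, 8.15 and 6.43 in the Ki67-negative libraries. The Ki67-negative libraries were lowest, with no overlap with either other group, and the treated and Ki67-positive libraries overlapped. Cdkn2c rose against the Ki67-negative nests (log2 fold change 0.75, SE 0.28, adjusted p = 0.0467 by edgeR). That call was lost without Ki67-negative library 3, 4 or 5 (adjusted p = 0.111, 0.0606 and 0.0814), without Ki67-positive library 3 or 4 (0.054 and 0.0524) and without vismodegib library 1, 2 or 5 (0.0674, 0.145 and 0.0678). Against the Ki67-positive nests the log2 fold change was 0.01, with a span of 2 standard errors from -0.54 to 0.56.

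Cdkn2d encodes p19Ink4d, the other small INK4 inhibitor. Its CPM values were 17.3, 15.2, 7.62, 17.4 and 18.6 in the vismodegib libraries, 12.7, 7.88, 12.4, 16.8 and 15.8 in the Ki67-positive libraries and 5.0, 10.9, 6.26, 11.5 and 1.80 in the Ki67-negative libraries. Of the treated libraries 4 exceeded every Ki67-negative library, and the remaining one, library 3, fell inside their range. Cdkn2d rose against the Ki67-negative nests (log2 fold change 1.09, SE 0.38, adjusted p = 0.0373 by edgeR). Ki67-negative library 5, which holds its lowest value, stands apart with 19669 genes detected against 21653 to 23322 in the other 14 libraries. Without it the log2 fold change of Cdkn2d was 0.84 (adjusted p = 0.0532) and that of Cdkn2c 0.69 (adjusted p = 0.0814). The call of Cdkn2d was also lost without Ki67-negative library 1 or 3 (adjusted p = 0.0788 and 0.0741) and without vismodegib library 1, 2, 4 or 5 (0.0697, 0.0521, 0.0681 and 0.0773). Against the Ki67-positive nests its log2 fold change was 0.21, with 2 standard errors reaching from -0.54 to 0.96.

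Per length of transcript, the makeup of the INK4 family was different after treatment. The deposited RPKM values, in which levels of different genes can be compared, were summed over Cdkn2a, Cdkn2b, Cdkn2c and Cdkn2d. The sum was 6.04 ± 1.01 RPKM in the vismodegib libraries (4.25 to 6.63), 15.1 ± 3.51 in the Ki67-positive libraries (10.1 to 18.8) and 14.7 ± 2.16 in the Ki67-negative libraries (12.0 to 17.4; SD, n = 5 each). All treated libraries were below all untreated ones. Cdkn2b made up 27.1% ± 8.71 of the INK4 sum in the treated libraries, 67.7% ± 12.7 in the Ki67-positive and 80.7% ± 5.59 in the Ki67-negative libraries. In relation to their kinases, the INK4 sum was 0.229 ± 0.0567 of the summed RPKM of Cdk4 and Cdk6 after treatment, against 0.499 ± 0.135 and 0.608 ± 0.162. No test was made on these sums.

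**Figure D2:**
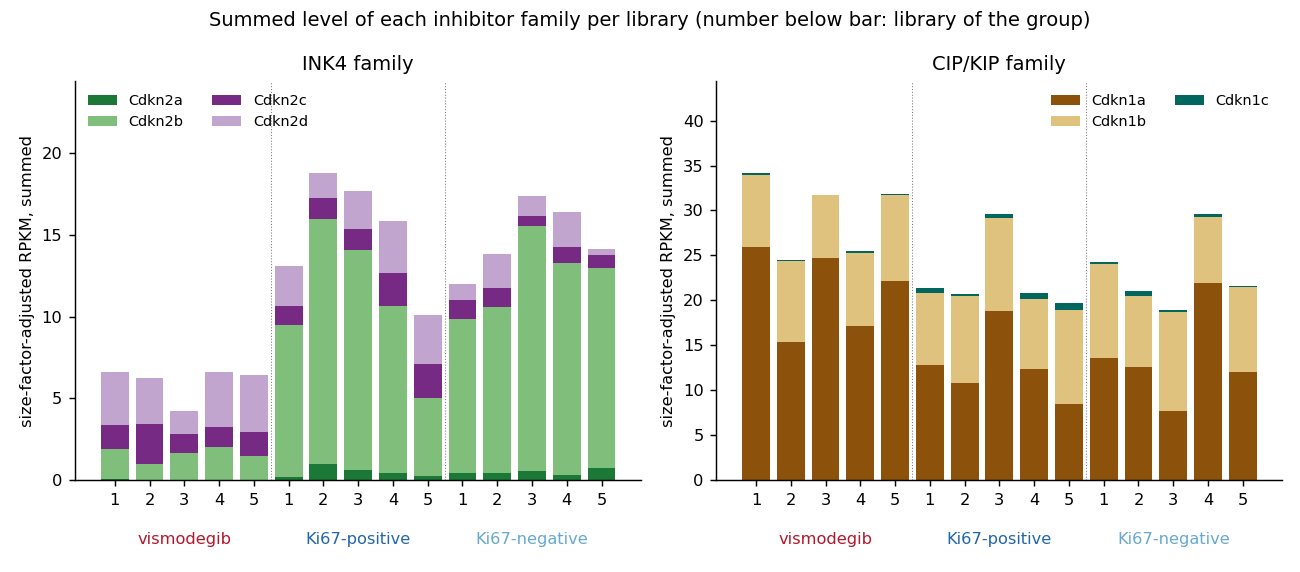
Deposited RPKM (vertical axes from 0, divided by a size factor per library) of the INK4 genes (left) and the CIP/KIP genes (right), stacked for each of the 15 libraries. The INK4 bars of the vismodegib libraries end between 4.25 and 6.63 and those of the untreated libraries between 10.1 and 18.8, a gap made by the Cdkn2b segment.

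Within the vismodegib group the order of levels per length was Cdkn1a (mean 21.0 RPKM), Cdkn1b (8.37), Cdkn2d (2.86), Cdkn2b (1.59), Cdkn2c (1.57), Cdkn1c (0.148) and Cdkn2a (0.0210). Library ranges of Cdkn2d, Cdkn2b and Cdkn2c overlapped there, so their order is not resolved. In the Ki67-positive group Cdkn2b was in the second place with 10.5 RPKM, between Cdkn1a (12.7) and Cdkn1b (9.26), and the 3 ranges overlapped. The Ki67-negative group had Cdkn2b at 11.9 RPKM between Cdkn1a at 13.6 and Cdkn1b at 9.26, again with overlapping ranges. Cdkn2b thus stood among the most abundant inhibitor transcripts in untreated nests and beside Cdkn2c after treatment.

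Cdkn1a encodes p21, the CIP/KIP inhibitor that p53 is known to induce and that is also transcribed without p53 in differentiating keratinocytes. An annotated gene on the opposite strand, AC167363.2, overlaps its exons, and without strand information their reads cannot be told apart. It stood at 193, 114, 183, 124 and 165 CPM in the vismodegib libraries, 94.0, 78.5, 139, 91.3 and 61.3 CPM in the Ki67-positive libraries and 100.4, 92.8, 54.5, 162 and 86.5 CPM in the Ki67-negative libraries. Treated libraries were the higher, but Ki67-positive library 3 and Ki67-negative library 4 reached into their range. Cdkn1a rose against the Ki67-positive nests by 0.75 on the log2 scale (SE 0.25, adjusted p = 0.0369 by edgeR). This call was lost without Ki67-positive library 1, 2, 4 or 5 (adjusted p = 0.0593, 0.0838, 0.0691 and 0.0888) and without vismodegib library 1, 3 or 5 (0.085, 0.0845 and 0.0688). Against the Ki67-negative nests the log2 fold change was 0.65 (SE 0.25, adjusted p = 0.0567), and it was called without Ki67-negative library 4 (adjusted p = 0.00672), Ki67-positive library 3 or 5 (0.0422 and 0.0486) or vismodegib library 2 (0.0382), and by DESeq2 (0.0369) and limma-voom (0.0354). Over the alternatives the adjusted p ran from 0.0117 to 0.322 for the first comparison and from 0.00672 to 0.336 for the second.

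Cdkn1b encodes p27, which restrains Cdk2 and is regulated largely through breakdown of the protein. Its CPM values lay between 119 and 163 in the vismodegib libraries, between 131 and 174 in the Ki67-positive libraries and between 124 and 180 in the Ki67-negative libraries. The 3 groups overlapped throughout, and Cdkn1b had the smallest relative spread of the 7 inhibitors in each group (coefficients of variation 11.9%, 13.7% and 16.3%). The log2 fold change was -0.13 against the Ki67-positive nests, where 2 standard errors span -0.40 to 0.15, and -0.12 against the Ki67-negative nests, where they span -0.39 to 0.16. Adjusted p-values by edgeR were 0.531 and 0.537.

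Cdkn1c encodes p57, an imprinted inhibitor expressed from the maternal allele. The vismodegib libraries held 8, 7, 6, 15 and 7 counts of it, the Ki67-positive libraries 28, 8, 27, 42 and 29 and the Ki67-negative libraries 7, 28, 5, 14 and 2. In CPM 4 of 5 Ki67-positive libraries exceeded every treated library, and Ki67-positive library 2 lay among them. Cdkn1c fell against the Ki67-positive nests, which had 3.89 ± 1.74 CPM, to 1.14 ± 0.454 CPM (edgeR, adjusted p = 0.0296, log2 fold change -1.77 with SE 0.57). The call was lost without Ki67-positive library 1, 4 or 5 (adjusted p = 0.0503, 0.0653 and 0.073) and without vismodegib library 1, 2, 3 or 5 (0.0551, 0.0516, 0.0792 and 0.0656). With the fibroblast marker level of each library as a covariate it was -1.08 (adjusted p = 0.289). Against the Ki67-negative nests the log2 fold change was -0.60 with 2 standard errors from -1.76 to 0.57. A count of 10 was reached in 1 of 5 treated, 4 of 5 Ki67-positive and 2 of 5 Ki67-negative libraries, and an antisense gene overlaps Cdkn1c, and without strand the reads of both cannot be told apart. Of 13 measured neighbours in its imprinted cluster, 2 rose and 2 fell against the Ki67-positive nests, where 12.6% of all genes rose and 13.4% fell. Against the Ki67-negative nests, where these shares were 15.4% and 16.5%, 1 neighbour rose and 2 neighbours fell. Among these, Kcnq1ot1, the noncoding RNA known to silence Cdkn1c on the paternal allele and antisense to Kcnq1, fell (log2 fold change -0.49 and -0.52, adjusted p = 0.0443 and 0.0278), and Ascl2, a transcription factor of the cluster, rose (2.88 and 2.64, adjusted p = 0.00167 and 0.00266, edgeR).

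**Figure D3:**
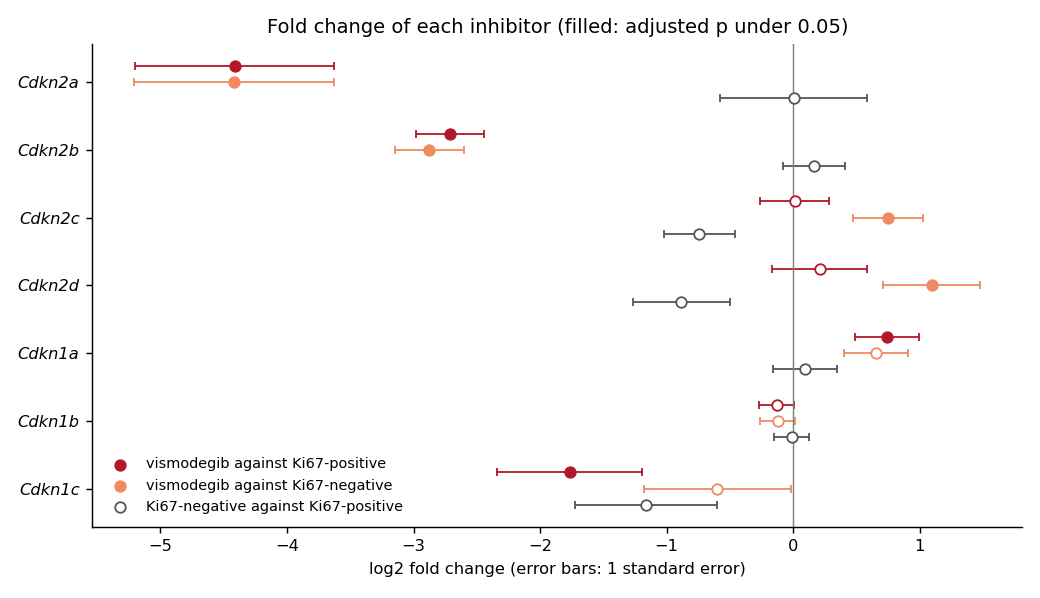
Log2 fold change (horizontal axis, error bars of 1 standard error) of the 7 inhibitors in the 3 comparisons. Filled points passed an adjusted p of 0.05 in edgeR. Cdkn2a and Cdkn2b lie far left of 0 in both comparisons with vismodegib, and all points of the comparison between untreated groups are open.

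The comparison of Ki67-negative with Ki67-positive nests asks whether the inhibitors differ between untreated nests that differ in proliferation. Of the 7 inhibitors 0 were called higher and 0 lower by edgeR and by limma-voom, and DESeq2 called 0 of the 5 to which it gave an adjusted p (it gave none to Cdkn1c and Cdkn2a), while 2 had an unadjusted p under 0.05 in edgeR (Cdkn2c, 0.016, and Cdkn2d, 0.034). Over all genes tested 0.0% were called higher (0 of 17282) and 0.174% lower (30 genes), and 1154 had an unadjusted p under 0.05. The number called over all genes depended on single libraries, being 0 when library 4 of the Ki67-positive or library 3, 4 or 5 of the Ki67-negative group was left out, 2 without Ki67-positive library 5 and 12 without Ki67-negative library 2. Cdkn2c was the one inhibitor whose groups did not overlap, which held for 1.17% of all genes, and its log2 fold change was -0.74 (2 standard errors from -1.30 to -0.18, adjusted p = 0.639). Cdkn2d stood at -0.88 (-1.65 to -0.11, adjusted p = 0.716 by edgeR) and Cdkn1c at -1.17 (-2.29 to -0.04, adjusted p = 0.758 by edgeR). The Cdkn1c span ends just short of 0, but its unadjusted p in edgeR was not under 0.05. Cdkn2b at 0.17 (-0.33 to 0.66) and Cdkn2a at 0.01 (-1.16 to 1.17) had spans on both sides of 0. The proliferation gene Mki67, which encodes the antigen of the label, was at 776 ± 228 CPM in the Ki67-positive and 361 ± 74.5 CPM in the Ki67-negative libraries (log2 fold change -1.10, adjusted p = 0.0291 by edgeR). Since this antigen defined the 2 groups, their difference in Mki67 is no independent result. In the vismodegib libraries Mki67 was at 683 ± 142 CPM. The accession numbers of the Ki67-negative group are later than those of the other groups, and a batch behind them cannot be told apart from the group.

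Of 12 kinases and cyclins tested that the inhibitors bind, 1 rose and 2 fell against the Ki67-positive nests, where 12.6% of all genes rose and 13.4% fell. Against the Ki67-negative nests 5 rose and 2 fell, where the shares of all genes were 15.4% and 16.5%. Ccnd2, a D-type cyclin that activates Cdk4 and Cdk6, rose from 125 ± 45.6 CPM in the Ki67-positive and 98.6 ± 37.3 in the Ki67-negative libraries to 413 ± 97.9 in the vismodegib libraries (log2 fold change 1.73 and 2.07, adjusted p = 0.000121 and 2.27e-05, edgeR). All treated libraries exceeded all untreated ones for Ccnd2. Ccnd3 fell (-0.66 and -0.76, adjusted p = 0.0439 and 0.0175), as did Cdk2 (-0.81 and -0.73, adjusted p = 0.00501 and 0.00921, edgeR). Cdk4, the main target of INK4 proteins, was at -0.43 and -0.04 and was not called, and Cdk6 was at 0.28 (adjusted p = 0.0953) and rose by 0.39 in the second comparison (adjusted p = 0.0216, edgeR). Against the Ki67-negative nests the mitotic kinase gene Cdk1 rose by 0.95, and its cyclins Ccna2 by 1.02 and Ccnb2 by 0.82 on the log2 scale (adjusted p = 0.0114, 0.00173 and 0.0465, edgeR). Against the Ki67-positive nests these 3 were at -0.27, -0.10 and -0.24 and were not called. Ccnd1 was at -0.51 and -0.43 (adjusted p = 0.224 and 0.278).

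Downstream, 13 retinoblastoma and E2F genes were measured, of which 2 rose and 2 fell against the Ki67-positive nests and 3 rose and 0 fell against the Ki67-negative nests. Beside this and the following lists, 12.6% of all genes rose and 13.4% fell in the first comparison, and 15.4% and 16.5% in the second. Rbl2, which encodes the p130 pocket protein of resting cells, rose in both (log2 fold change 0.57 and 0.36, adjusted p = 0.00156 and 0.027, edgeR), and Rb1 itself was at -0.26 and -0.21 and was not called. Of 23 proliferation genes 0 rose and 3 fell against the Ki67-positive nests (Birc5, Bub1 and Cenpe). Against the Ki67-negative nests 8 rose and 0 fell, with Mki67 at 0.92 (adjusted p = 0.00189 by edgeR). The Ki67-negative nests were chosen by the antigen that Mki67 encodes, so this difference is no independent result on proliferation after treatment. Of 11 genes that act in breakdown of inhibitor proteins, 0 were called in the first comparison and 3 rose in the second (Cdc20, Dtl and Pcna). Skp2, the ubiquitin ligase subunit that marks p27 for breakdown, was not called (log2 fold change 0.00 and 0.43, adjusted p = 0.989 and 0.113).

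Upstream regulators of the INK4 locus were examined beside the fall of Cdkn2a and Cdkn2b. Of 23 Polycomb and other INK4 locus regulators, 0 rose and 3 fell against the Ki67-positive nests and 1 rose and 6 fell against the Ki67-negative nests. For this list and the next, the shares of all genes were 12.6% higher and 13.4% lower in the first comparison. They were 15.4% and 16.5% in the second. Whether these regulators act on the locus here was not tested. Bmi1 and Ezh2, the Polycomb proteins best known for silencing Cdkn2a, were not called (Bmi1 at -0.09 and -0.17, Ezh2 at -0.29 and 0.08 on the log2 scale). Cbx6, a Polycomb reader protein, fell (log2 fold change -1.78 and -1.90, adjusted p = 8.96e-05 and 4.17e-05), and Kdm6b, a demethylase that removes the Polycomb mark, fell (log2 fold change -0.97 and -1.09, adjusted p = 0.000657 and 0.000208, edgeR). Of 18 TGF-beta, Foxo and Myc inputs, 3 rose and 5 fell in the first comparison and 3 rose and 4 fell in the second. The 3 that rose were Klf4, Smad7 and the TGF-beta receptor gene Tgfbr3 in both comparisons. Smad3, which carries the TGF-beta signal to target genes, fell (log2 fold change -1.48 and -1.35, adjusted p = 2.05e-05 and 4.15e-05), and the ligand gene Tgfb1 fell (log2 fold change -1.14 and -1.23, adjusted p = 0.00501 and 0.0025, edgeR). Klf4, a factor known to activate Cdkn1a in differentiating epithelium, rose (log2 fold change 1.59 and 1.504, adjusted p = 0.000255 and 0.000365, edgeR). Myc, a repressor of Cdkn2b and Cdkn1a, was at 0.59 and 0.29 and was not called.

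Cdkn1a, which was called only against the Ki67-positive nests, did not share its direction with most p53-responsive genes that were called. Of 21 measured, 3 rose and 7 fell against the Ki67-positive nests and 1 rose and 8 fell against the Ki67-negative nests. Beside this and the following lists, 12.6% of all genes rose and 13.4% fell in the first comparison. In the second 15.4% rose and 16.5% fell. Mdm2, the p53-induced ubiquitin ligase of p53, fell (log2 fold change -0.57 and -0.50, adjusted p = 0.00305 and 0.00691), and Perp, a desmosomal protein of stratified epithelium, rose (1.29 and 1.48, adjusted p = 0.000711 and 0.000196, edgeR). Trp53 itself was at -0.42 and -0.23 on the log2 scale and was not called (adjusted p = 0.0573 and 0.271), and counts over the whole gene do not separate intact from recombined transcripts. Of 18 senescence-associated genes, 2 rose and 5 fell against the Ki67-positive nests and 1 rose and 6 fell against the Ki67-negative nests. The secreted protein gene Igfbp7 fell (log2 fold change -1.92 and -1.77, adjusted p = 1.69e-06 and 3.52e-06), while Igfbp5 rose (1.5 and 1.14, adjusted p = 0.0147 and 0.0457, edgeR). Of 20 quiescence and cell cycle exit genes, 3 rose and 1 fell in the first comparison and 5 rose and 2 fell in the second. Of 9 other genes named for inhibitors or kinases, 1 rose and 1 fell in the first and 2 rose and 1 fell in the second, with Tob1, an antiproliferative gene, higher and Cables1, a kinase adaptor, lower in both. Of 10 Hedgehog targets, 1 rose and 8 fell in the first and 1 rose and 6 fell in the second.

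**Figure D4:**
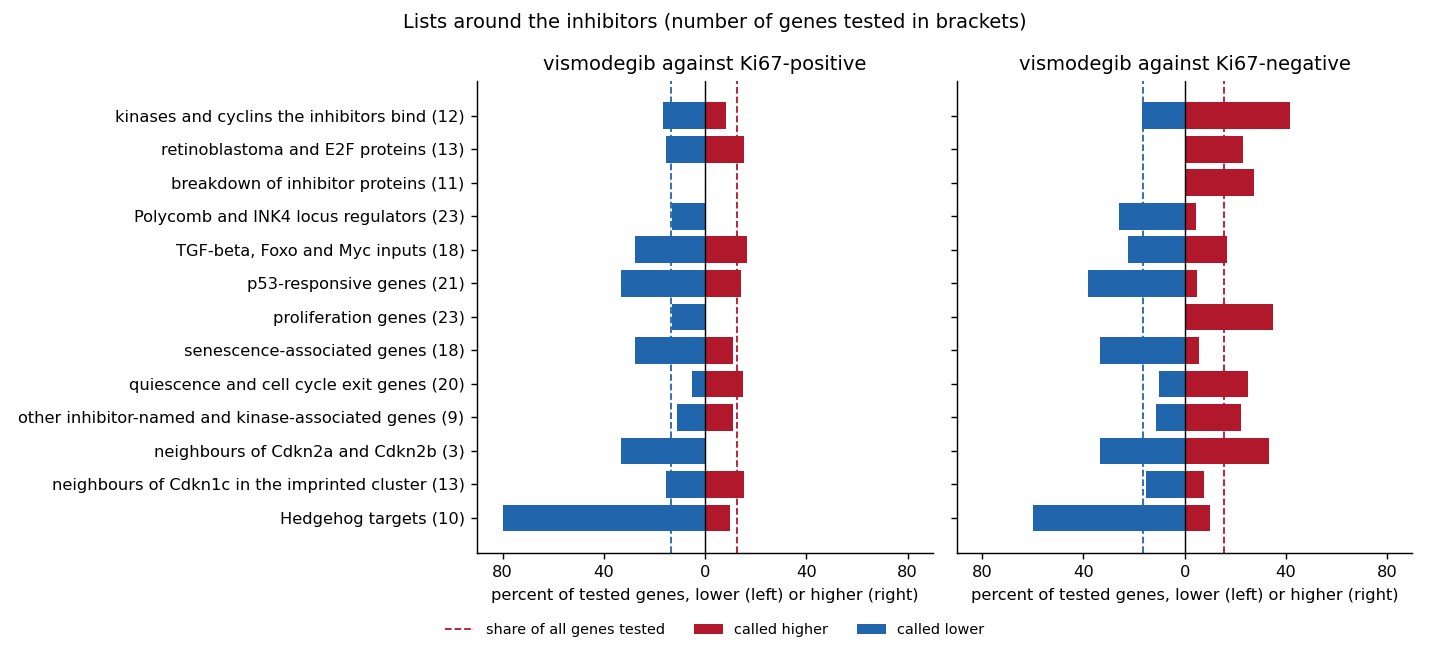
Share of the measured genes of each list (rows, number measured in brackets) that were called lower (bars to the left) or higher (bars to the right) by edgeR in each comparison with vismodegib. Dashed lines give the share of all 17282 genes tested, 13.4% lower and 12.6% higher on the left panel and 16.5% and 15.4% on the right. Cell type marker lists are not drawn. Among the lists drawn, the Hedgehog targets reach farthest to the left, with 8 of 10 and 6 of 10 lower.

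The libraries also differed in the levels of cell type marker genes, and the part of this in the results was not tested except where stated. Marker levels in bulk nests do not tell numbers of cells from RNA per cell. Basal keratinocyte markers, present in every library, summed to 13900 to 17370 CPM in the vismodegib libraries, 7433 to 8496 in the Ki67-positive and 6261 to 9001 in the Ki67-negative libraries. Differentiated keratinocyte markers summed to 4672 to 6966 CPM in the treated libraries and at most 1128 and 1078 CPM in the untreated groups, and 14 and 15 of 15 rose. Dendritic and Langerhans cell markers summed to 724 to 2384 CPM against 104 to 488 and 137 to 473, with 8 and 6 of 8 higher. T cell markers summed to 37.8 to 114 CPM against 14.4 to 35.2 and 8.71 to 51.2, with 5 and 4 of 7 higher. Pericyte and smooth muscle markers summed to 86.1 to 137 CPM against 504 to 893 and 602 to 937, with 4 of 6 lower in both. Fibroblast markers (656 to 4139, 2171 to 7216 and 3234 to 5898 CPM) had 5 and 6 of 13 lower. Melanocyte markers (127 to 463, 384 to 1652 and 226 to 1299 CPM) had 5 and 3 of 8 lower. In the second comparison 1 melanocyte marker, Mitf, was called higher. Sebaceous markers had 3 of 8 higher in both, endothelial markers 1 of 7 lower in both and macrophage markers 1 of 8 higher in both. Of all genes tested, 12.6% and 15.4% were higher and 13.4% and 16.5% lower in these comparisons. No marker was at 0 in all libraries of a group. With the fibroblast marker level as a covariate, Cdkn2b was still called lower in both comparisons, and so was Cdkn2a. Here and in the subset below, Cdkn2a passed the filter only through untreated libraries and could hardly be called any way but lower. That covariate covers fibroblasts alone, whose sums overlapped between the groups. No covariate was fitted for the pericyte, keratinocyte or other markers, so their part was not tested. Ddx3y, a Y-linked gene, was below Xist in 3 treated libraries (1, 2 and 3) and in library 5 of each untreated group, and among the other 10 libraries Cdkn2a and Cdkn2b were also called lower in both comparisons. Those 10 held only libraries 4 and 5 of the vismodegib group, and the subset was chosen after seeing the data.

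Genes whose log2 CPM followed an inhibitor most closely over the 15 libraries were listed as a description, the points sharing libraries and depth. For Cdkn2b they included Trabd2b and Heg1, each with a Pearson correlation of 0.98, and of 0.75 and 0.81 after group means were subtracted. Cdkn2a was closest to Tsc22d1 (0.97), Zfp532 and Etv5 (0.96 each). For Cdkn2c they were Kif4 (0.93, and 0.87 within groups), Chek2 and Tpx2 (0.91 each). Cdkn2d was closest to Grsf1, Oga and Vrk2 (0.90 to 0.92), and Cdkn1a to Ankrd13a, Prnp and Slc6a8 (0.91 each). Correlations were lower for Cdkn1b, with Zfp267 at 0.81, Zkscan7 and Tchp at 0.78, and for Cdkn1c, with Ppm1b and Lin9 at 0.87 and Gng2 at 0.85. Among the inhibitors themselves, Cdkn1c and Cdkn2d had a correlation of 0.59 over all libraries and 0.88 within groups, and Cdkn2b and Cdkn2c one of -0.53 and -0.70.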

How the data were processed

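RNA was sequenced from 15 libraries of laser-captured nests. Reads were aligned with GSNAP to GRCm38, per the submitters' processing notes; its version, the gene annotation and the counting strand were not given in the sources used here. The deposited counts number the uniquely aligned reads of a gene model, per the file headers. The deposited RPKM values were divided by a size factor per library by the authors, per the file headers, and were used only to compare levels between genes. Of 36528 gene identifiers, 31049 (85.0%) matched a symbol in RefSeq's annotation of GRCm38.p6, the source of coordinates and windows; the rest, with 2.258% to 3.934% of counts per library, were kept in the fit. Libraries held 4887381 to 10328822 counts. Of 30 pairs of libraries within groups 0 were identical, and chi-square per degree of freedom between the counts of a pair was 13.2 to 43.3, where sampling noise alone gives 1.

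Counts were tested with the two-sided quasi-likelihood test of edgeR 4.0.16 (R 4.3.3, TMM scaling, robust dispersion, filterByExpr with a minimum count of 10 and total of 15) in 1 fit of all 15 libraries, without covariates (12 residual degrees of freedom). Benjamini-Hochberg adjustment covered all 17282 genes, and genes were called at an adjusted p under 0.05. The script was tested on simulated data. CPM values use TMM-scaled totals. Alternatives were no filter, a minimum count of 30, RLE and upper-quartile scaling, DESeq2 1.42.0, voom from limma 3.58.1, no robust dispersion, only the groups compared, Xist and fibroblast covariates, leaving out each library, and, chosen after seeing the data, the 10 libraries in which Ddx3y exceeds Xist. Libraries were grouped by the labelled treatment and Ki67 status and numbered in accession order.

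The inhibitors and the gene lists were chosen with earlier results of these data known. Named genes are the 7 inhibitors, up to 3 called genes of a list with the smallest adjusted p, several fixed genes such as Cdk4, Rb1, Trp53, Myc and Mtap, and the 3 genes with the highest correlation to each inhibitor at an average log2 CPM of at least 3. Genes outside that rule (Ptch1, Ccnd3, Kdm6b, Klf4, Tgfb1, Rbl2, Mdm2, Kcnq1ot1, Klhl9 and the genes that complete a short count) were named after their values were seen. Some genes that the rule names are not reported here.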

Additional observations from a re-analysis of the deposited data

Results flagged for a closer look

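Among the vismodegib libraries, Cdkn2c in library 2 stood apart from the other 4 at 20.4 CPM. The next library was at 12.6 CPM, and the gap made up 0.738 of the range of the group. Such gaps were looked for in 21 groups, the 7 inhibitors in each of 3 groups of libraries, and 1 was found. Chance gives a gap of the size looked for in about 1 in 20 groups, so about 1 among these 21. Without that library the log2 fold change of Cdkn2c against the Ki67-negative nests was 0.54 (adjusted p = 0.145 by edgeR) in place of 0.75 (adjusted p = 0.0467).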

How the results depend on the processing

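The falls of Cdkn2b and Cdkn2a in both comparisons with vismodegib stayed called under every alternative in which they were tested (26 for Cdkn2b and 24 for Cdkn2a in each comparison). Cdkn2a failed the filter at a minimum count of 30 and when only the groups compared were fitted. Where it passed a filter, it did so through untreated libraries and could hardly be called any way but lower. The calls of Cdkn2a thus carry less weight than those of Cdkn2b. Cdkn1a against the Ki67-positive nests kept its call under 16 of 26 alternatives, Cdkn1c under 16 of 25, and against the Ki67-negative nests Cdkn2c under 11 of 26 and Cdkn2d under 17 of 26, all in the same direction. Inhibitors called higher against the Ki67-negative nests numbered 1 with no filter, with upper-quartile scaling and with the Xist or fibroblast covariate, and 0 with only the groups compared and among the 10 libraries in which Ddx3y exceeds Xist; leaving out 1 library gave 0 to 3. Against the Ki67-positive nests they numbered 0 with no filter, with the fibroblast covariate and among the 10 libraries, and 0 to 1 with 1 library left out. Inhibitors called lower numbered 1 in both comparisons at a minimum count of 30, and 1 with only the Ki67-negative and vismodegib groups fitted; fewer genes were tested there. Genes called between the untreated groups numbered 88 by DESeq2, 15 by voom, 0 with only those groups, 0 among the 10 libraries and 0 to 43 with 1 library left out. The 10 libraries gave 2815 genes called against the Ki67-positive and 3024 against the Ki67-negative nests, where fewer samples were fitted. Log2 fold changes near 0 changed sign, and the cause was not tested. Between the untreated groups Cdkn1b was at 0.002 with RLE scaling, by DESeq2 and with only those groups, 0.012 with the fibroblast covariate and 0.033 among the 10 libraries (-0.071 to 0.061 with 1 library left out). Cdkn2a was at -0.015 with upper-quartile scaling, -0.012 with the Xist covariate and -0.356 among the 10 libraries (-0.202 to 0.389 with 1 left out), Cdkn2b at -0.019 among the 10 libraries (-0.015 to 0.323) and Cdkn1a at -0.151 to 0.286 with 1 left out. Against the Ki67-positive nests Cdkn2c was at -0.035 with upper-quartile scaling and by voom, -0.072 with the Xist covariate, -0.139 with the fibroblast covariate and -0.076 among the 10 libraries (-0.202 to 0.124 with 1 left out), and Cdkn1b at 0.001 among the 10 libraries. Cdkn1c against the Ki67-negative nests was at 0.171 with the fibroblast covariate. Labels carry no replicate numbers, so no paired analysis was possible because nothing pairs the libraries. Depth limits Cdkn2a and Cdkn1c, which had few counts in a library.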
